A study of Mus musculus with 8 samples.

Results

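The genes described here are the regulators that set the activity of the sterol regulatory element-binding proteins (SREBPs) and genes of sterol uptake and carriage that answer to the cholesterol level of the cell. They are Srebf1, Srebf2, Scap, Insig1, Insig2, Mbtps1, Mbtps2, Mylip and Stard4, which were chosen by name for their role and not by a measured value. All 9 were found among the 24346 genes of the deposited expression table, and all 9 passed the filter on low values. RNA-seq was performed on 8 samples of immature oligodendrocytes (iOLs) induced from primary mouse oligodendrocyte precursor cells (OPCs), to ask how loss of the Mediator subunit MED23 changes gene expression as OPCs differentiate. The 4 Med23+/+ samples came from control littermates that carry Med23fl/fl without Cre. The 4 Med23-/- samples came from Med23fl/fl;Olig1-Cre mice, in which Cre is made from the Olig1 locus and so acts in the oligodendrocyte lineage and not in every cell. Only the Med23-/- samples carry Cre, so effects of Cre or of its Olig1 allele cannot be told apart from those of Med23 loss. OPCs of both genotypes were immunopanned with a CD140a antibody from brains of early postnatal pups after a BSL1 plate had removed endothelial cells and microglia, expanded with PDGF-AA and NT-3, and kept for 1 day in 15 nM T3, the thyroid hormone that starts differentiation, with 10 ng/mL CNTF. The labels do not say whether replicates came from separate animals or cultures, so the p-values measure the spread between these samples, which may be technical.

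SREBPs are transcription factors that are made as membrane proteins of the endoplasmic reticulum. SCAP escorts them to the Golgi when sterols are low, INSIG proteins hold SCAP back when sterols are high, and a pair of Golgi proteases, encoded by Mbtps1 and Mbtps2, cuts out the part that enters the nucleus. There it switches on genes for cholesterol and fatty acid synthesis, which oligodendrocytes need in bulk because myelin is rich in cholesterol and is built largely from lipid made within the cell.

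Promoters of a few of these genes are shown first, because the study's question concerns a transcriptional coactivator. They were picked with the calls of the comparison that follows known. Insig1 and Mbtps2 were both called lower in Med23-/- iOLs, whereas Srebf2 was the most abundant of the 9 and was not called. Whether Insig1 or Mbtps2 changed unlike Srebf2 was not tested, and the motifs are given as a description. Each window runs from 250 bases before to 50 bases after the start of transcription in RefSeq (GRCm38.p6, the sequence of mm10), on the strand of the gene. Capitals mark the GC box GGGCGG and the CCAAT box, each searched on both strands, and no capital stretch overlaps another.
Insig1, chr5:28071162-28071461, plus strand: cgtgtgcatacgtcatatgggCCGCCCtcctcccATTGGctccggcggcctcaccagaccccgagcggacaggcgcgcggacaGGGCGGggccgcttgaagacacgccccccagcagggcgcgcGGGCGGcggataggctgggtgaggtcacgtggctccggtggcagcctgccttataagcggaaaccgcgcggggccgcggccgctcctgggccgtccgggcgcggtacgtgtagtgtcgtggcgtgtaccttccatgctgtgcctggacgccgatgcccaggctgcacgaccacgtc
Srebf2, chr15:82147019-82147318, plus strand: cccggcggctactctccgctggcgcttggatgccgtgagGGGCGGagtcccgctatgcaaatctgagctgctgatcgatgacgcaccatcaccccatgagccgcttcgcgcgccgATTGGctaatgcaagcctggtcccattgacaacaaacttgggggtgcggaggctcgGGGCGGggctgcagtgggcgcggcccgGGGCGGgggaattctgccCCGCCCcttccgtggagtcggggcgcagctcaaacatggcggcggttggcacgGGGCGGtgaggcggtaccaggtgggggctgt
Mbtps2, chrX:157598666-157598965, minus strand: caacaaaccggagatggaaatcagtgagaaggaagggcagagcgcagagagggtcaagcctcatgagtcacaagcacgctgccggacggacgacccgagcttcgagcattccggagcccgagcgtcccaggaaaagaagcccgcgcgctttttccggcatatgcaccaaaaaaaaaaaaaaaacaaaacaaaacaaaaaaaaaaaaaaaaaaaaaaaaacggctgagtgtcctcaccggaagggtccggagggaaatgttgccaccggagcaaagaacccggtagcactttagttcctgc
The Insig1 window held 3 GC boxes and 1 CCAAT box, the Srebf2 window 5 GC boxes and 1 CCAAT box, and the Mbtps2 window neither. RefSeq gave 13 such windows for 8 of the 9 genes. A GC box was present in 10 of the 13 windows, against 35.7% of all 32851 windows in the table, and a CCAAT box in 6 of the 13, against 37.4%. The windows are not independent, since those of Scap overlap and share a GC box. By gene, 7 of the 8 had a GC box and 5 a CCAAT box in any window. Genes with several windows have more chances of a match, so these counts by gene cannot be set against a share of windows. The letters TCACNCCAC, a form of the sterol regulatory element also searched on both strands, were in 0 of the 13 windows and in 1.24% of all windows. Only these exact letters were searched, so other forms of the element may be present, and Stard4 had no window. The share of G and C was 71.7% in the Insig1 window, 68.7% in that of Srebf2 and 50.3% in that of Mbtps2, beside a median of 52.7% over all windows. Over the 13 windows it ran from 46.0%, in a window of Insig2, to the 71.7% of Insig1. The GC box is itself made only of G and C. Its count was not compared with windows of like composition or of expressed genes. A match of letters is not a bound site, and binding was not measured in these libraries.

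The files give FPKM, a level scaled to transcript length and library size, so levels of different genes can be set side by side per unit of length. Read depth is unknown from FPKM. Genes with a value over 0 numbered 15941 to 16363 per Med23+/+ library and 16408 to 16469 per Med23-/- library. Med23 itself was at 12.7, 12.2, 12.6 and 12.6 FPKM in Med23+/+ replicates 1 to 4 and at 8.40, 7.93, 8.49 and 8.21 FPKM in Med23-/- replicates 1 to 4. The genotypes did not overlap, and the mean fell by 34.2% (difference in log2(FPKM + 1) of -0.55, SE 0.07, limma adjusted p = 0.000353). The value is for the whole gene, so reads from the deleted part cannot be separated from the rest.

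The labelled cell type was checked against marker genes. The summed level of 7 markers listed for precursors, which include Pdgfra and Olig2, ran from 2229 to 2543 FPKM in Med23+/+ and from 2091 to 2592 FPKM in Med23-/- libraries. The 7 moved apart: 2 were called higher in Med23-/- iOLs, 2 were called lower and 3 were not called. Pdgfra rose the most, from a mean of 121 to 334 FPKM (1.47, limma adjusted p = 2.3e-05). Gpr17 fell the most, from a mean of 698 to 355 FPKM (-1.05, adjusted p = 0.00991). Opposite moves thus offset each other in the sum, which is not a measure of precursors alone. The summed level of 7 differentiating oligodendrocyte markers, which include Mbp and Cnp, ran from 757 to 890.1 FPKM in Med23+/+ and from 209.9 to 397 FPKM in Med23-/- libraries, and 7 of 7 were called lower in Med23-/- iOLs. Markers of other cells were measured too. Summed over 8 astrocyte markers the range was 219 to 275 FPKM in Med23+/+ and 111 to 165 FPKM in Med23-/-, with 3 called lower, 1 higher and 4 not called. S100b made up most of that fall, with a mean of 125 FPKM without and 17.5 FPKM with the deletion. Gfap (-1.70, limma adjusted p = 0.0222) and Aqp4 (-1.29, adjusted p = 0.0120), at lower levels, were the others called lower. Slc1a2 was the 1 that was higher (0.67, adjusted p = 0.0222). The 4 not called were Aldh1l1 (-0.68), Slc1a3 (0.09), Gja1 (0.29) and Aldoc (-0.001). The astrocyte sum thus followed S100b more than the list as a whole, and is not a measure of astrocytes by itself. Over 8 neuron markers the range was 202 to 220 FPKM in Med23+/+ and 289 to 380 FPKM in Med23-/-, with 7 called higher, 5 of them more than 2-fold, and 1 not called. Map2 was the largest part of the sum at means of 161 and 202 FPKM and moved the least (0.32, limma adjusted p = 0.0179). Stmn2 moved the most, from a mean of 9.26 to 29.9 FPKM (1.54, adjusted p = 0.0038). The 8 microglia markers each had a mean under 1 FPKM, as did 5 of 6 endothelial markers and 5 of 7 pericyte or fibroblast markers, and no marker was at 0 in all 8 libraries. In bulk samples, fewer cells of a type and less RNA per cell cannot be told apart, and the part of these shifts in the results on the SREBP genes was not tested.

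Across the comparison of Med23-/- with Med23+/+ iOLs, 3 of the 9 genes passed the test and all 3 were lower in Med23-/- iOLs, namely Insig1, Mbtps2 and Stard4. The mean of Insig1 fell by 15.0%, that of Mbtps2 fell by 19.9% and that of Stard4 fell by 19.6%. No member was called higher. The 3 called members are 33.3% of 9, beside 30.0% of all 12328 genes tested that were called in either direction, 14.1% lower and 15.9% higher. The study set its own limit at a 2-fold change, which 0 of the 9 passed, beside 1.75% of all genes tested that were called and more than 2-fold lower and 2.98% more than 2-fold higher. The median difference of the 9 was -0.04 on the log2(FPKM + 1) scale, beside -0.01 for all genes tested, and 2 of the 9 had genotypes that did not overlap, beside 31.6% of all genes tested. The 95% interval of each of the 9 differences lay inside 2-fold in both directions, with -0.52 as the lowest bound (Mbtps2) and 0.40 as the highest (Mylip).

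**Figure D1:**
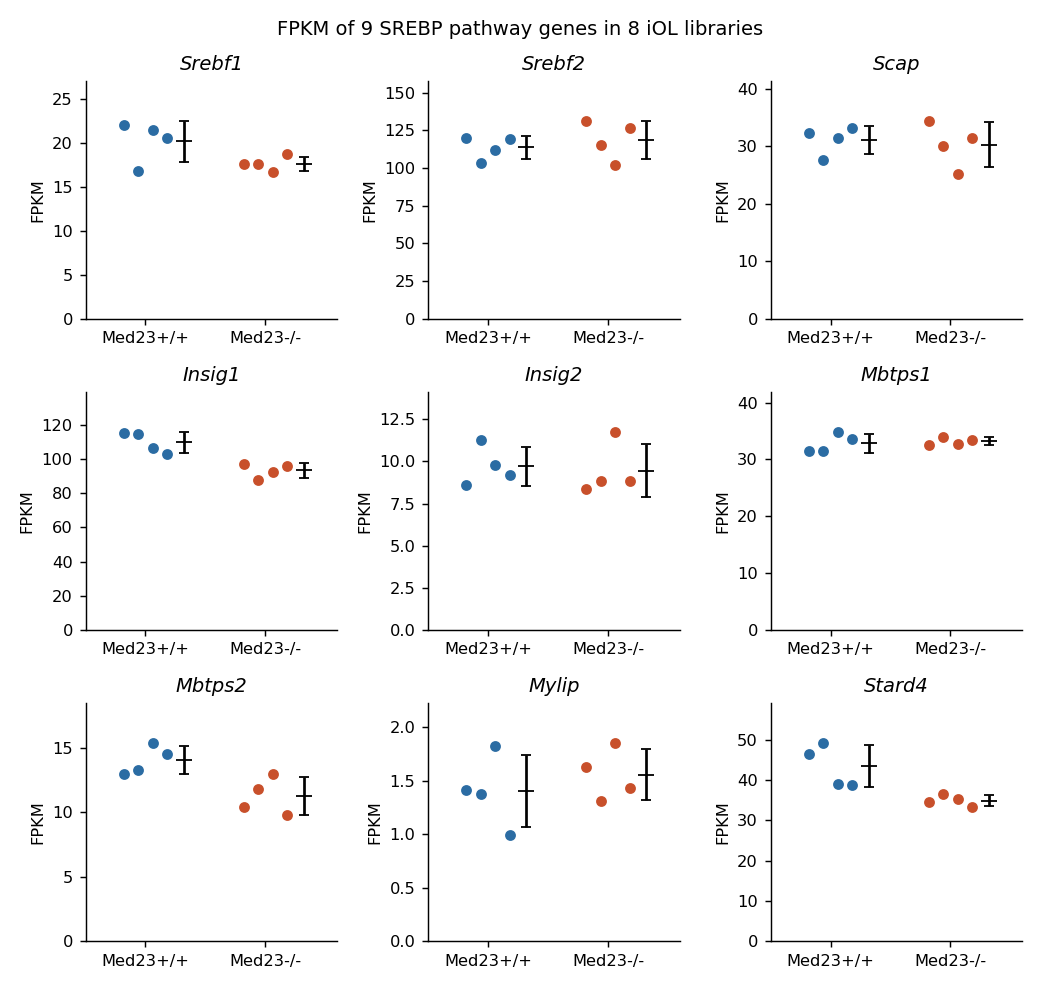
FPKM (y axes, from 0) of each of the 9 genes in the 4 Med23+/+ (blue) and 4 Med23-/- (red) libraries, drawn from replicate 1 on the left to 4 on the right, with the mean and SD in black. Insig1 and Stard4 are the panels in which every Med23-/- library lies below every Med23+/+ library, and Mbtps2 overlaps through 1 library of each genotype.

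**Figure D2:**
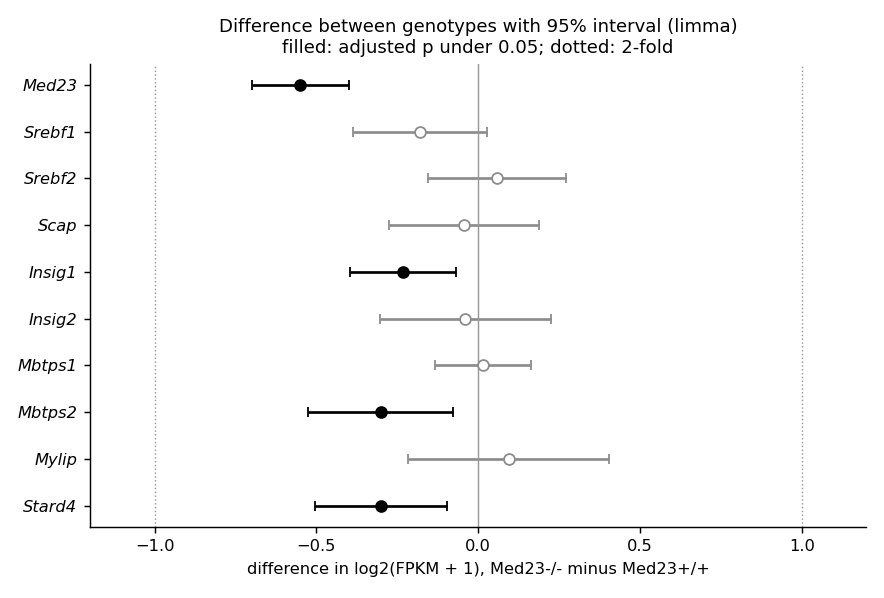
Difference in log2(FPKM + 1) between genotypes (x axis) with its 95% interval for Med23 and the 9 genes, from limma, with called genes filled and 2-fold marked by dotted lines. Insig1, Mbtps2 and Stard4 lie to the left of 0 with intervals that leave it out, and all 9 intervals stay inside the dotted lines.

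The transcription factors themselves came first. Srebf2 (ENSMUSG00000022463.8, chr15:82147181-82205379, plus strand) encodes the SREBP that mainly drives cholesterol synthesis. It was at 119.9, 103, 112 and 119 FPKM in Med23+/+ replicates 1 to 4 and at 131, 115, 102 and 126 FPKM in Med23-/- replicates 1 to 4. The genotypes overlapped, although Med23-/- replicates 1 and 4 lay above every Med23+/+ library. The mean of Srebf2 was 113.6 ± 7.81 FPKM without the deletion and 118.6 ± 12.8 FPKM with it (SD, n = 4 per genotype), and the difference was 0.06 on the log2(FPKM + 1) scale (SE 0.10, 95% interval -0.16 to 0.27, limma adjusted p = 0.693). The interval allows a level between 0.898 and 1.21 times that of Med23+/+ iOLs.

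Srebf1 (ENSMUSG00000020538.15, chr11:60199089-60222581, minus strand) encodes the SREBP that mainly drives fatty acid synthesis, in forms made from different promoters that a value for the whole gene cannot separate. It was at 22.0, 16.8, 21.4 and 20.5 FPKM in Med23+/+ replicates 1 to 4 and at 17.6, 17.5, 16.7 and 18.7 FPKM in Med23-/- replicates 1 to 4. In 3 of the 4 Med23+/+ libraries the level was above every Med23-/- library, whereas Med23+/+ replicate 2 lay near the bottom of the Med23-/- range. The difference of -0.18 (SE 0.09, 95% interval -0.39 to 0.03, limma adjusted p = 0.175) was not called, and without Med23+/+ replicate 2 it was -0.26 with an adjusted p of 0.0351. Some of its annotated exons lie opposite exons of Rai1, with a shared stretch of up to 109 bases, and whether counting used strand is not given in the sources used here.

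The escort and the anchors are the genes of SCAP and the INSIG proteins. Insig1 (ENSMUSG00000045294.11, chr5:28071363-28078662, plus strand) is an anchor whose own gene is a known SREBP target. Whether other genes described here are SREBP targets too was not examined, so this label does not set called genes apart. It was at 115, 115, 107 and 103 FPKM in Med23+/+ replicates 1 to 4 and at 97.2, 87.9, 92.5 and 96.0 FPKM in Med23-/- replicates 1 to 4. The genotypes did not overlap, and the libraries that came closest were Med23+/+ replicate 4 and Med23-/- replicate 1. The mean of Insig1 fell from 109.9 ± 6.14 FPKM to 93.4 ± 4.18 FPKM with the deletion (SD, n = 4 per genotype), which is a difference of -0.23 (SE 0.07, 95% interval -0.40 to -0.07, limma adjusted p = 0.0373, two-sided exact permutation p = 0.0286, the smallest that 4 against 4 allows).

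Insig2 (ENSMUSG00000003721.14, chr1:121304353-121332589, minus strand), the other anchor, was at 8.60, 11.3, 9.78 and 9.19 FPKM in Med23+/+ replicates 1 to 4 and at 8.35, 8.87, 11.8 and 8.86 FPKM in Med23-/- replicates 1 to 4. One library of each genotype stood above the rest, Med23+/+ replicate 2 and Med23-/- replicate 3, and the other 6 overlapped. The difference was -0.04 (95% interval -0.30 to 0.22, limma adjusted p = 0.834).

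Scap (ENSMUSG00000032485.14, chr9:110333288-110384950, plus strand), the escort, was at 32.2, 27.6, 31.4 and 33.2 FPKM in Med23+/+ replicates 1 to 4 and at 34.4, 30.1, 25.1 and 31.4 FPKM in Med23-/- replicates 1 to 4. Its lowest libraries were the ones in which Insig2 was highest. The difference of -0.04 (95% interval -0.28 to 0.19, limma adjusted p = 0.785) was smaller than the spread within either genotype.

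The proteases are encoded by Mbtps1, which makes the first cut, and Mbtps2, which makes the cut within the membrane. Mbtps1 (ENSMUSG00000031835.16, chr8:119508156-119558735, minus strand) was the steadiest of the 9, at 31.4, 31.5, 34.9 and 33.5 FPKM in Med23+/+ replicates 1 to 4 and at 32.5, 34.0, 32.7 and 33.4 FPKM in Med23-/- replicates 1 to 4. All 4 Med23-/- libraries lay within the Med23+/+ range, and the difference was 0.02 (95% interval -0.13 to 0.16, limma adjusted p = 0.888).

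Mbtps2 (ENSMUSG00000046873.18, chrX:157535371-157598715, minus strand) was at 13.0, 13.3, 15.4 and 14.5 FPKM in Med23+/+ replicates 1 to 4 and at 10.4, 11.9, 13.0 and 9.78 FPKM in Med23-/- replicates 1 to 4. In 3 of the 4 Med23-/- libraries the level was below every Med23+/+ library, and Med23-/- replicate 3 lay level with the lowest Med23+/+ library. The mean of Mbtps2 fell from 14.1 ± 1.11 FPKM to 11.3 ± 1.45 FPKM with the deletion (SD, n = 4 per genotype), which is a difference of -0.30 (SE 0.10, 95% interval -0.52 to -0.08, limma adjusted p = 0.0469, two-sided exact permutation p = 0.0571). The gene is X-linked, and Xist, the RNA of the inactive X of female cells, reached 182 FPKM in the library of Med23+/+ replicate 1, 209 FPKM in that of Med23-/- replicate 2 and no more than 0.384 FPKM in the other 6. The genotypes thus held 1 such library each. With this split as a covariate, chosen after seeing the data, the adjusted p of Mbtps2 was 0.0619. Its annotated exons also share up to 2867 bases with exons of Yy2 on the same strand, a gene whose mean over the 8 libraries was 3.50 FPKM.

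Sterol uptake and carriage were represented by Mylip and Stard4. Mylip (ENSMUSG00000038175.10, chr13:45389742-45412022, plus strand) encodes the ubiquitin ligase IDOL, a target of the liver X receptors (LXRs) that sends lipoprotein receptors for degradation. It was hardly expressed, at 1.42, 1.37, 1.83 and 0.997 FPKM in Med23+/+ replicates 1 to 4 and at 1.63, 1.31, 1.86 and 1.43 FPKM in Med23-/- replicates 1 to 4. The genotypes overlapped, and the difference of 0.09 had the widest interval of the 9 (-0.22 to 0.40, limma adjusted p = 0.650).

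Stard4 (ENSMUSG00000024378.9, chr18:33199355-33213862, minus strand) encodes a carrier that moves cholesterol between membranes inside the cell, and its gene is a known SREBP target. It was at 46.4, 49.3, 39.1 and 38.9 FPKM in Med23+/+ replicates 1 to 4 and at 34.5, 36.5, 35.3 and 33.3 FPKM in Med23-/- replicates 1 to 4. The Med23-/- libraries lay close together and below every Med23+/+ library, of which replicates 1 and 2 were well above replicates 3 and 4. The mean of Stard4 fell from 43.4 ± 5.23 FPKM to 34.9 ± 1.31 FPKM with the deletion (SD, n = 4 per genotype), which is a difference of -0.30 (SE 0.09, 95% interval -0.50 to -0.10, limma adjusted p = 0.0326, two-sided exact permutation p = 0.0286).

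The adjusted p of Insig1, Mbtps2 and Stard4 lay close to the threshold, and the calls moved with the fit. In 10 other fits of all 8 libraries Insig1 passed in 6, Mbtps2 in 6 and Stard4 in 7. With 1 library left out in turn, Insig1 passed in 2 of 8 fits, Mbtps2 in 1 and Stard4 in 3, whereas the direction stayed lower in every one of these fits. Quantile normalization, which gives all libraries the same distribution of values, took Insig1 from -0.23 to -0.10 (limma adjusted p = 0.366), Stard4 from -0.30 to -0.21 (0.167) and Mbtps2 to -0.30 (0.0508), so that 0 of the 9 genes were called.

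**Figure D3:**
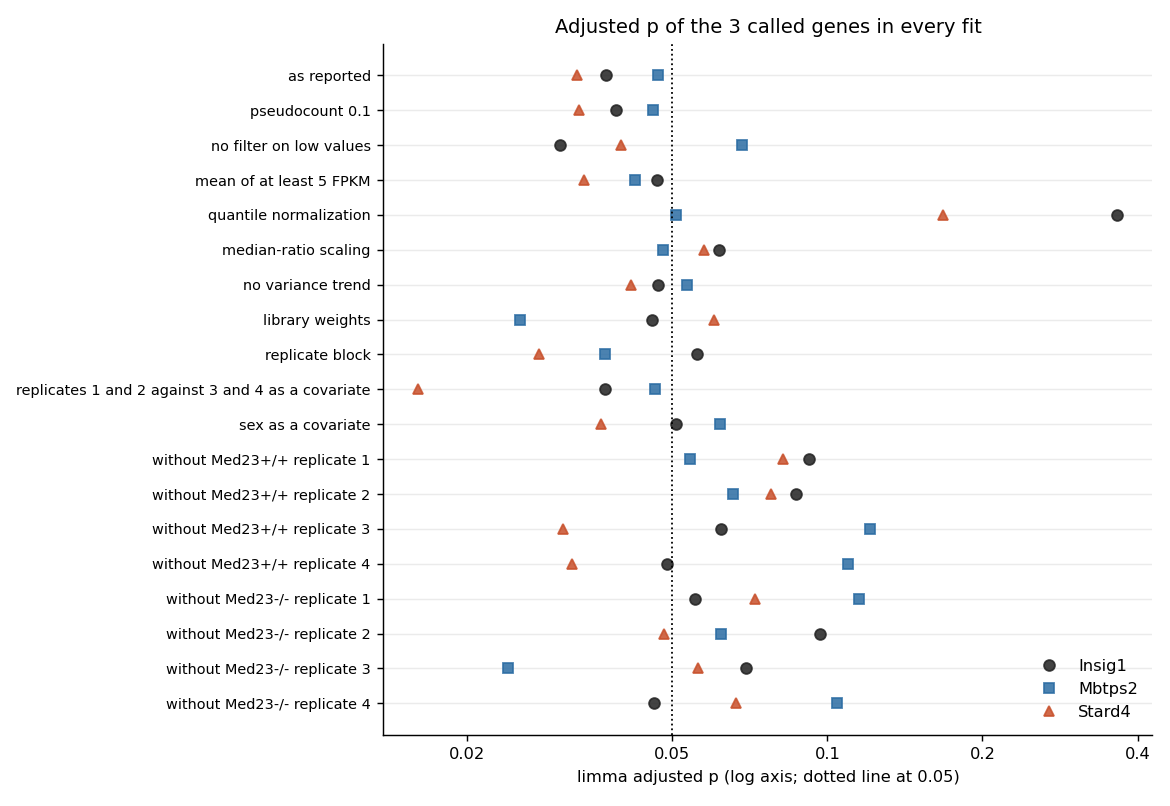
Limma adjusted p (x axis, log scale) of Insig1, Mbtps2 and Stard4 in the fit reported and in every other fit, 1 per line of the y axis, with 0.05 dotted. The points of all 3 genes fall on both sides of the dotted line, and the largest is Insig1 under quantile normalization at 0.366.

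The levels were also put in order. In Med23+/+ iOLs Srebf2 at 113.6 FPKM and Insig1 at 109.9 FPKM led and their libraries overlapped, which put them above 95% and 94.8% of the genes tested. Stard4 followed at 43.4 FPKM, then Mbtps1 at 32.8 and Scap at 31.1 FPKM, which overlapped, then Srebf1 at 20.2, Mbtps2 at 14.1, Insig2 at 9.72 and Mylip at 1.40 FPKM, with no overlap between these neighbours. In Med23-/- iOLs the order of the 9 means was the same. There Srebf2 and Insig1 no longer overlapped, whereas Stard4 overlapped with Mbtps1, Mbtps1 with Scap, and Mbtps2 with Insig2.

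Within the gene pairs of related function, the ratios of the partners were compared in each library, in 4 pairs. Srebf1 was below Srebf2 by 2.44 on the log2(FPKM + 1) scale in Med23+/+ and by 2.68 in Med23-/- iOLs, whereas Insig1 was above Insig2 by 3.38 and 3.18. Mbtps1 exceeded Mbtps2 by 1.21, 1.18, 1.13 and 1.15 in Med23+/+ replicates 1 to 4 and by 1.55, 1.45, 1.27 and 1.67 in Med23-/- replicates 1 to 4. The protease ratio did not overlap between genotypes, and its mean moved from 1.17 ± 0.04 to 1.48 ± 0.17 (SD, n = 4 each), a difference of 0.32 (two-sided exact permutation p = 0.0286, 0.114 after Benjamini-Hochberg adjustment over the 4 pairs). The Srebf1 to Srebf2 ratio differed by -0.24 (exact permutation p = 0.0571, adjusted 0.114), that of Insig1 to Insig2 by -0.19 (exact permutation p = 0.257, adjusted 0.257) and that of Insig1 to Scap by -0.19 (exact permutation p = 0.2, adjusted 0.257). No ratio thus passed after adjustment. With 4 libraries a genotype and 4 pairs, the smallest adjusted p that 1 ratio alone could reach is 0.114.

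From library to library, Srebf2 and Insig2 ran in opposite directions. Over the 8 libraries Pearson's r of their log2(FPKM + 1) values was -0.93 and Spearman's rho -0.95 (two-sided exact permutation p = 0.0009 and 0.0011, or 0.0321 and 0.0411 after adjustment over the 36 pairs of members). Without the 2 libraries farthest from the median of Srebf2, r was -0.78. Within the genotypes it was -0.97 in Med23+/+ and -0.92 in Med23-/- iOLs, with 4 libraries each. Scap went with Srebf2 (r = 0.89, rho = 0.88, exact permutation p = 0.0031 and 0.0072, adjusted 0.0547 and 0.130) and against Insig2 (r = -0.90, rho = -0.81, exact permutation p = 0.0048 and 0.0218, adjusted 0.0547 and 0.261), and without the 2 farthest libraries these r were 0.66 and -0.40. Med23+/+ replicate 2 and Med23-/- replicate 3 were the libraries at the low end for Srebf2 and Scap and at the high end for Insig2. Of 9433 other genes that averaged 5 FPKM or more, 0.583% had a correlation with Srebf2 as strong as that of Insig2 in either direction, and the genes of a library share its preparation and depth.

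**Figure D4:**
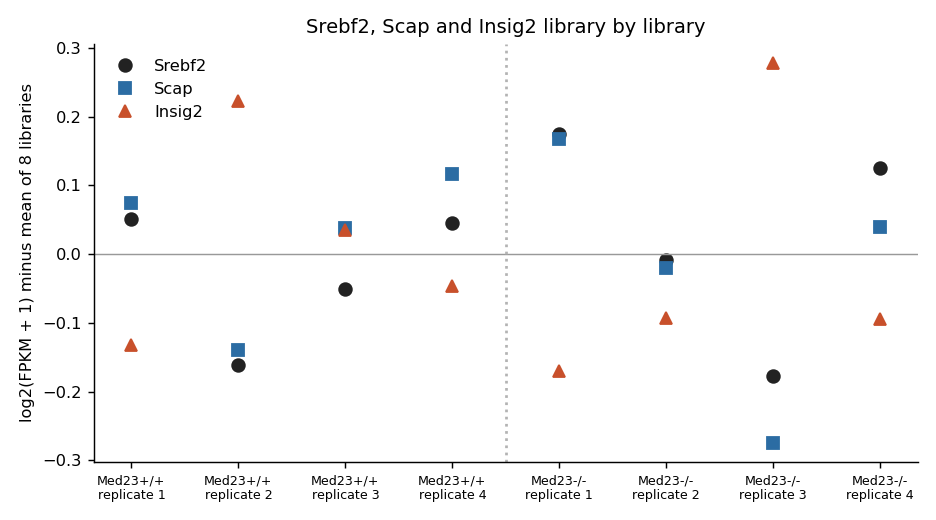
Log2(FPKM + 1) of Srebf2 (circles), Scap (squares) and Insig2 (triangles) in each of the 8 libraries (x axis), less the mean of each gene over the 8 (y axis), with a dotted line between the genotypes. Insig2 is highest and Srebf2 and Scap are lowest in Med23+/+ replicate 2 and Med23-/- replicate 3.

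The genes most like Srebf1, Srebf2, Insig1 and Stard4 over the 8 libraries were then sought, as a description, by Pearson's r among the 9433 genes. For Insig1 these were Sqle, squalene epoxidase of cholesterol synthesis (r = 0.97), Actl6a, a chromatin remodelling subunit (0.96), and the glucose transporter gene Slc2a1 (0.95). For Stard4 they were Idi1, an isomerase of the mevalonate pathway (r = 0.995), Fsd1l (0.98) and Msmo1, a demethylating oxidase of sterol synthesis (0.97). For Srebf2 they were Capn15 (0.98), Rai1 (0.97) and Mtx1 (0.96), and for Srebf1 Mlf2 (0.98), Clptm1 (0.97) and Rnmtl1 (0.96). All 6 genes most like Insig1 and Stard4 were lower in Med23-/- iOLs (limma adjusted p from 0.0090 to 0.0257), while the 6 most like Srebf2 and Srebf1 were not called (adjusted p from 0.0779 to 0.969). Since Insig1 and Stard4 differed between genotypes, genes that differ the same way score high on this measure by construction.

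The other genes of the pathway were taken by list. The closest is a list of 28 further genes that hold, move or degrade SREBPs, SCAP and INSIG, all of which were tested. Of these, 7 were lower in Med23-/- iOLs, 4 were higher and 17 were not called, with a median of -0.15. The lower count was 4 without Med23+/+ replicate 3, Med23+/+ replicate 4 or Med23-/- replicate 1. Among the lower ones were Ube2g2 (17.1 ± 0.970 against 12.1 ± 1.67 FPKM in Med23-/-, difference -0.47), a ubiquitin-conjugating enzyme of the endoplasmic reticulum, and Vcp (265 ± 22.8 against 201 ± 6.05 FPKM, -0.39), the ATPase that pulls ubiquitinated proteins out of its membrane, with limma adjusted p of 0.0068 and 0.0062. Tmem41b, a lipid scramblase of the same membrane, was also lower (-0.43, limma adjusted p = 0.0079). Higher were Fbxw7 (9.63 ± 1.40 against 14.9 ± 3.70 FPKM in Med23-/-, 0.56, limma adjusted p = 0.0319), the ubiquitin ligase subunit that marks nuclear SREBPs for degradation, Pgrmc1, a haem-binding protein of the endoplasmic reticulum (0.51, adjusted p = 0.0012), and Lpin1, a phosphatidate phosphatase that represses SREBP activity in the nucleus (0.41, adjusted p = 0.0081).

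The same shares of all genes tested, 14.1% lower and 15.9% higher, stand beside the lists that follow. Of 31 further genes for lipoprotein uptake and intracellular sterol transport, 26 were tested, 5 were lower and 5 higher (19.2% each), with a median of 0.03. The lower count was 3 without Med23+/+ replicate 4 or Med23-/- replicate 3, and the higher count was 3 without Med23-/- replicate 4. The lower ones included Osbpl1a, an oxysterol-binding protein of late endosomes (10.6 ± 2.07 against 5.22 ± 0.925 FPKM in Med23-/-, -0.90, limma adjusted p = 0.0015), and Soat1, which esterifies cholesterol for storage (-0.60, adjusted p = 0.0023). The higher ones included Lrp1, a large endocytic receptor for apolipoprotein E (101 ± 6.72 against 148 ± 11.0 FPKM in Med23-/-, 0.55, limma adjusted p = 0.0012), and the oxysterol-binding protein genes Osbpl5 (0.50, adjusted p = 0.0066) and Osbpl10 (0.48, adjusted p = 0.0214). Of 20 upstream regulators and partners of SREBPs, 19 were tested, 1 was lower (5.26%) and 2 were higher (10.5%), with a median of 0.04. The lower was Prkaa1, a catalytic subunit of the kinase AMPK (-0.50, limma adjusted p = 0.0021), and the higher were Usf1, a transcription factor of lipogenic genes (0.33, adjusted p = 0.0082), and Lpin2 (0.29, adjusted p = 0.0246). Of the higher pair, 1 was left with quantile normalization, and 1 without Med23+/+ replicate 2, Med23-/- replicate 1 or Med23-/- replicate 4. Of 12 genes for LXRs and their targets, 9 were tested, 1 was lower and 1 was higher (11.1% each), with a median of 0.11. The lower was Lpcat3 (-0.60, limma adjusted p = 0.0023) and the higher was Plin2 (0.46, adjusted p = 0.0273). The higher count was 0 with quantile normalization, at a limit of 5 FPKM, and without Med23+/+ replicate 3, Med23+/+ replicate 4, Med23-/- replicate 1 or Med23-/- replicate 4.

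Genes of sterol and fatty acid synthesis that SREBPs switch on were then set beside the 9 genes. Of 20 sterol synthesis enzymes, 16 were lower in Med23-/- iOLs and 0 higher, with a median of -0.48, and the lower count was 10 with quantile normalization. Among the 16 were Lss, lanosterol synthase (94.3 ± 5.51 against 54.0 ± 3.65 FPKM in Med23-/-, -0.79), and Fdps, which makes farnesyl diphosphate (378 ± 28.7 against 230 ± 16.2 FPKM, -0.71). Of 18 genes of fatty acid synthesis, 16 were tested, 11 were lower and 2 higher (1 at a limit of 5 FPKM), with a median of -0.46. Among the lower were the desaturase genes Scd1 (-0.98) and Scd2 (-0.76) and Mid1ip1 (-0.73), an activator of acetyl-CoA carboxylase, and among the higher was Gpam (0.65), which begins glycerolipid synthesis. These counts stand beside 3 of 9 lower for the SREBP pathway genes, and beside 14.1% lower and 15.9% higher for all genes tested. The 9 are not regulators alone, since Insig1 and Stard4 are themselves known SREBP targets. Whether other members are targets too, such as Srebf1 and Srebf2, which were not called, was not examined. Being named a target here thus does not set the called genes apart. The counts also stand beside the summed differentiating oligodendrocyte markers given above, and whether the groups of genes differ from each other was not tested.

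**Figure D5:**
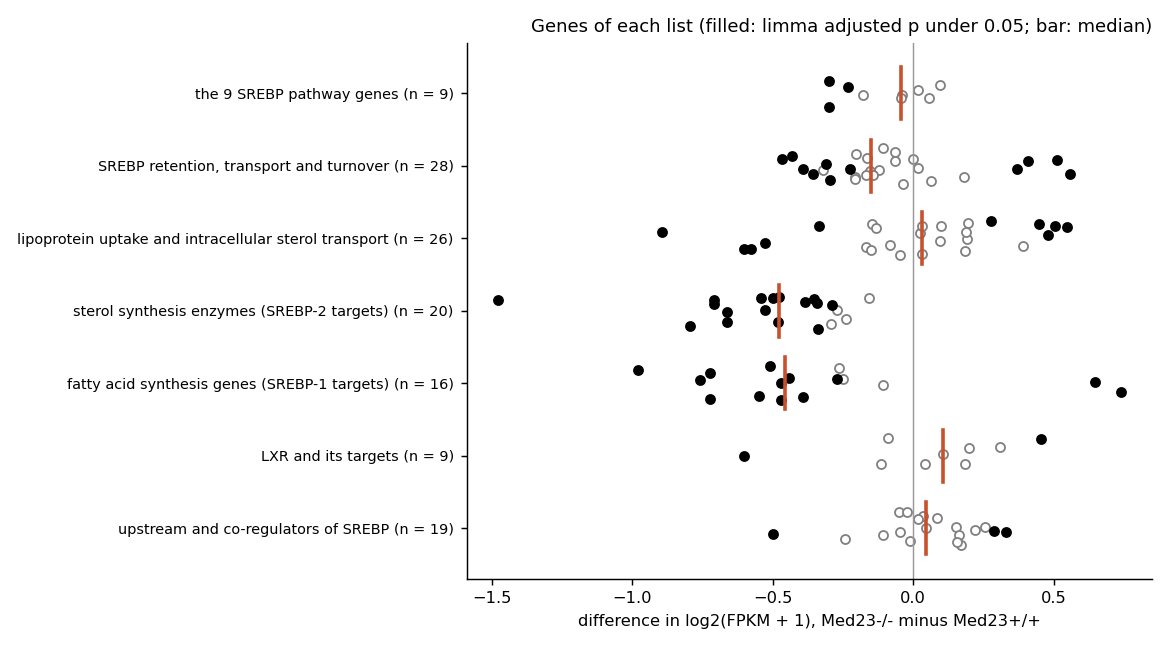
Difference in log2(FPKM + 1) between genotypes (x axis) for the tested genes of each list (y axis, n in brackets), 1 point per gene, filled where the limma adjusted p is under 0.05, with the median as a red bar. The medians of the 9 SREBP pathway genes (-0.04), of uptake and transport (0.03) and of upstream regulators (0.04) lie near 0, and those of sterol synthesis (-0.48) and fatty acid synthesis (-0.46) lie to the left.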

How the data were processed

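RNA-seq was run on 8 libraries, 4 Med23+/+ and 4 Med23-/-, named by the replicate numbers of the labels. Reads from an Illumina X-10 instrument were trimmed by the authors with Cutadapt, aligned to mm10 with TopHat2 at its defaults, and quantified with Cuffdiff, with bias correction (-b) and multi-read correction (-u). Tool versions, the annotation and the library normalization are not given in the sources used here. The authors deposited FPKM per library, and the deposited group means, log2 fold changes, test statistics, p-values and q-values of their own comparison were not used. 0 library columns were left out. Cuffdiff divides reads shared by similar or overlapping genes by estimate, so low values are estimates too.

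Values were transformed to log2(FPKM + 1), a scale that understates changes of low genes. The 12328 genes that averaged 1 FPKM or more were fitted with limma 3.58.1 in R 4.3.3 (eBayes with a mean-variance trend) with Benjamini-Hochberg adjustment over all of them, and an adjusted p under 0.05 made a call. The fit was tested on simulated data first. Single values were compared by two-sided exact permutation tests in Python 3.11.15 with scipy 1.17.1. Same-numbered replicates deviated from their group means with correlations of 0.13, -0.10, -0.03 and 0.16, so samples were not paired. Named genes are the 9 members, Med23, up to 3 called genes per direction and list with the largest differences and a mean of 5 FPKM or more in the genotype with more, and the 3 most similar genes of Srebf1, Srebf2, Insig1 and Stard4. Some genes under this rule or of the marker lists are left out here, and Plin2 was named after its value was seen. Members, lists and tests were chosen with earlier results of these data known. Coordinates are from GENCODE vM21 on mm10. Promoter windows are from RefSeq, which had none for Stard4 in the table used.

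The depth of the libraries is unknown. The worth of 1 read, read from the steps between values below 0.1 FPKM, ran from 0.742 to 1 relative to Med23+/+ replicate 1. The precision of low genes was thus not the same in all libraries. Alternatives were a pseudocount of 0.1, quantile normalization, no filter or one at 5 FPKM, median-ratio scaling, library weights, a fit without the variance trend, a replicate block, replicates 1 and 2 against 3 and 4 as a covariate, a fold change above 2, and each library left out in turn. Sex as a covariate, from Xist above 10 FPKM, was added after the data were seen.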

Additional observations from a re-analysis of the deposited data

Results flagged for a closer look

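Insig2 in Med23-/- replicate 3 stood apart from its group. It was at 11.8 FPKM, while the other 3 Med23-/- libraries lay between 8.35 and 8.87 FPKM, so the gap to the nearest was 0.849 of the range of the group. Of 20 groups of 4 libraries examined this way (9 genes and Med23 in each genotype), this was the 1 group so marked, and chance marks about 1 in 20. The same library had the lowest Srebf2, Scap and Srebf1 of its group, and without it the difference of Insig2 was -0.14 in place of -0.04, and was not called in either fit.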

How the results depend on the processing

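As reported, 3 of the 9 genes were called lower. The number was 1 with median-ratio scaling (Mbtps2), 1 with sex as a covariate (Stard4), 0 with quantile normalization, 0 at a fold change above 2, and 0 to 2 with 1 library left out, where each of the 8 libraries ended at least 1 of the 3 calls. The number called higher was 0 throughout. Over the 10 other fits of all libraries the limma adjusted p ran from 0.0303 to 0.366 for Insig1, from 0.0254 to 0.0683 for Mbtps2 and from 0.0161 to 0.167 for Stard4, and with 1 library left out from 0.0462 to 0.0970, from 0.0239 to 0.121 and from 0.0307 to 0.0820. The replicate numbers share no stated origin and did not deviate together. With the replicate number as a block, Insig1 had an adjusted p of 0.0559, Mbtps2 of 0.0370 and Stard4 of 0.0275, which left 2 called. Med23 stayed lower in every fit. The direction turned for genes whose difference was near 0: quantile normalization gave 0.023 for Scap and -0.058 for Mylip, and with 1 library left out Scap ran from -0.11 to 0.040, Insig2 from -0.14 to 0.028 and Mbtps1 from -0.0039 to 0.044. The cause was not tested.

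Counts in the lists moved as follows. Quantile normalization left 10 sterol synthesis enzymes lower, 0 LXR genes higher and 1 upstream regulator higher, and a limit of 5 FPKM left 1 fatty acid gene higher, 0 LXR genes higher and 1281 of all genes higher, where fewer genes were tested. With 1 library left out, 4 to 7 genes of retention and turnover were lower, 3 to 5 genes of uptake and transport were lower and 3 to 6 higher, 13 to 15 sterol enzymes were lower, 0 to 1 LXR genes and 1 to 2 upstream regulators were higher, and 1225 to 1667 of all genes were lower and 1556 to 1864 higher. Depth is unknown, so how far counting error limits Mylip, near 1 FPKM, cannot be given.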
